A study of Mus musculus with 4 samples.

Results

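The proteasome is the protease complex that degrades ubiquitin-tagged proteins, and its transcripts were followed here in mouse macrophages with and without bacterial lipopolysaccharide (LPS). The genes were all those whose mouse symbol starts with Psma, Psmb, Psmc, Psmd, Psme, Psmf or Psmg, leaving out predicted (Gm) and pseudogene (-ps) symbols. This gave 51 of the 24235 genes in the tables. They comprised 5 interferon-inducible members (Psmb8, Psmb9, Psmb10, Psme1 and Psme2) and 43 constitutive members, which include the assembly chaperones. The other 3 share the name and were not counted as subunits (Psmc3ip, Psme2b and Psme3ip1), though Psme2b is a near-identical copy of Psme2. Of the 51 members, 50 reached 1 FPKM (a fragment count divided by transcript length and by a scale for the library) in some library. The exception was Psmb11, the catalytic subunit of the thymus, which was listed at 0 in all 4.

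The cells were bone marrow derived macrophages of C57BL/6 mice, 7 weeks old, grown with M-CSF. There were 4 groups of 1 library each, namely wild type (WT) without LPS, WT after 4 h with 100 ng/ml LPS, and Sema6D-/- without and with the same LPS treatment. Sema6D is a membrane-bound semaphorin, and -/- marks the loss of both gene copies. The labels do not say which exons were deleted, how many animals gave cells, or whether the marrow of several animals was pooled. Every group being 1 library, no difference can be set against a spread between replicates, and no test across libraries was run. A fit of LPS and genotype without their interaction would leave 1 residual degree of freedom, with the genotypes standing in for replicates.

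The core of the proteasome, the 20S particle, is a stack of rings of alpha and beta subunits, and 3 of the beta subunits carry the proteolytic sites. The 19S cap unfolds tagged proteins and feeds them into the core, and together they form the 26S particle. Interferons make cells replace the constitutive catalytic subunits with immunosubunits, Psmb5 with Psmb8 (LMP7), Psmb6 with Psmb9 (LMP2) and Psmb7 with Psmb10 (MECL-1), and make more of the ring activator PA28, formed by Psme1 and Psme2. The resulting immunoproteasome is known for producing peptides that fit MHC class I molecules, and macrophages already hold some of it before stimulation.

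Promoter sequences are shown for both subunits of the Psmb8 and Psmb5 pair and of the Psmb9 and Psmb6 pair and for Psme1, because the results turn on the exchange within these pairs and on PA28. They were taken from the RefSeq table for GRCm38.p6, which held windows of 250 bases before to 50 bases after the annotated start for 43 of the 51 members. Each is printed 5′ to 3′ on the gene's strand for the first 280 bases of its window, with base 251 as the start. Psmb8 lies at chr17:34197945-34198224 on the plus strand and Psmb9 at chr17:34187301-34187580 on the minus strand. Psme1 lies at chr14:55578244-55578523 (plus), Psmb5 at chr14:54617966-54618245 (minus) and Psmb6 at chr11:70525107-70525386 (plus). Capitals mark a match to GAS (the letters TTCNNNGAA) in Psmb8, CCAAT read on the other strand in Psmb9, the interferon-stimulated response element core (GAAANNGAA) read on the other strand in Psme1, and an antioxidant element core (TGACNNNGC) in Psmb5 and Psmb6.
Psmb8: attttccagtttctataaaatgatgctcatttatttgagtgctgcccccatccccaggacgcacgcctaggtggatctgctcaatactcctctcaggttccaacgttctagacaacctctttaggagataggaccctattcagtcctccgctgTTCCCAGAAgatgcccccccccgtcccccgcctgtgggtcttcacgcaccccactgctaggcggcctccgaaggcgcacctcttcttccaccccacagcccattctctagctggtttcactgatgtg
Psmb9: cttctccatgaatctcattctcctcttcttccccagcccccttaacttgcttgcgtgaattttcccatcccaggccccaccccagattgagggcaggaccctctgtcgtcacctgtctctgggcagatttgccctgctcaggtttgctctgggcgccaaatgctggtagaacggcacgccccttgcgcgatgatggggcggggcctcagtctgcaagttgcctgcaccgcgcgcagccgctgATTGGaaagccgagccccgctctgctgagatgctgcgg
Psme1: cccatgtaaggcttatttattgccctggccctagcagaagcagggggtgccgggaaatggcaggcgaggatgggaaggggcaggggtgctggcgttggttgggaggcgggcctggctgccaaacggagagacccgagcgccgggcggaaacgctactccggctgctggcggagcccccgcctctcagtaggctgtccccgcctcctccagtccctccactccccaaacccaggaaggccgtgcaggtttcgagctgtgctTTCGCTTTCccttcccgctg
Psmb5: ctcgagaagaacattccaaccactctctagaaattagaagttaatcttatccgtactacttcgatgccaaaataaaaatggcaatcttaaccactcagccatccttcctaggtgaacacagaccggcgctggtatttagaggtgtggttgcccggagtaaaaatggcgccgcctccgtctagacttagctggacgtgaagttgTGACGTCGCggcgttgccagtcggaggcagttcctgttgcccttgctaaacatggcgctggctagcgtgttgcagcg
Psmb6: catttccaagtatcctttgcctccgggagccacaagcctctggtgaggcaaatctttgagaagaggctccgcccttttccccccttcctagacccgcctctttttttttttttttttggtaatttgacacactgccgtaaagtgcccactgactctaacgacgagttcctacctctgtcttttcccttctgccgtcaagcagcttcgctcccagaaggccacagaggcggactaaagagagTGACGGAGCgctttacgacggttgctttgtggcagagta

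Matches on either strand were counted in the full windows and set beside all 32851 windows of the table. The response element core was in the window of 1 of the 5 inducible members (Psme1) and 6 of 35 constitutive members, and in 8.56% of all windows. GAS was in 1 of 5 (Psmb8) and 2 of 35 members and in 8.30% of all windows. The NF-kB letters GGGANTTTC and GGGANTTCC were in none of the 5 windows and in 1.11% and 1.68% of all. The antioxidant element core was in 0 of 5 and 6 of 35 members (Psmb5, Psmb6, Psmc6, Psmd9, Psmd12 and Psme4), against 12.4% of all windows, and CCAAT was in 1 of 5 and 13 of 35, against 37.4%. The letters of GAS and of the response element core can overlap. A match is a description of the sequence, not a binding site. The Psmb9 window shared 275 bases with that of Tap1, a peptide transporter gene that runs the other way.

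Facts of the libraries that touch the results were as follows. The libraries held an estimated 17.2 M to 23.5 M fragments each, and between 9682 and 10057 genes per library reached 1 FPKM. Sema6d measured 0.304 and 0.219 FPKM in WT (without and with LPS) and 0.563 and 0.592 FPKM in the libraries labelled Sema6D-/-. It was thus not lower under that label, but all values are below 1 FPKM and the deleted exons are not stated. These values therefore neither bear out the label nor decide against it. If the genotype labels were exchanged, the sign of each genotype ratio given here would turn. Xist, the RNA that coats the silenced X chromosome in females, stood at 22.3 and 21.4 FPKM in WT and at most 0.0333 FPKM in the other libraries. The Y-linked gene Eif2s3y measured 33.5 and 50.4 FPKM there and at most 0.0207 FPKM in WT, so sex differed with genotype. All 8 macrophage markers were at 1 FPKM or more in every library, but their levels differed between genotypes in both directions. Their log2 ratios of FPKM + 1, labelled Sema6D-/- against WT, ran from -0.84 (Itgam) to 1.13 (Cd14) without LPS. With LPS they ran from -1.02 (Itgam) to 1.97 (Mertk). The 7 neutrophil markers summed to 814 and 1253 FPKM in WT and to 229.8 and 355 FPKM in the libraries labelled Sema6D-/-, with 6 of 7 at 1 FPKM or more in each, none at 0, and Ly6g at most 0.450 FPKM. The 5 B cell markers summed to 12.5, 7.21, 3.15 and 0.707 FPKM in the order WT without LPS, WT with LPS, labelled Sema6D-/- without and with LPS. T cell, NK cell, dendritic cell, erythroid, mast cell and stromal lists summed to at most 4.39 FPKM. In bulk RNA, fewer cells of a type and less RNA per cell cannot be told apart.

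Values of 4 libraries below stand in the same order, WT without LPS, WT with LPS, labelled Sema6D-/- without LPS, labelled Sema6D-/- with LPS. Where square brackets follow a log2 ratio, it was taken on FPKM with nothing added, and they hold a 95% interval that covers counting error only. All other log2 ratios are of FPKM + 1, which understates ratios of low genes. A gene was called at a 2-fold or larger ratio of FPKM + 1.

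In both genotypes LPS came with higher transcript levels of every interferon-inducible member, while most constitutive members were less than 2-fold apart. The 5 inducible members had a median log2 LPS ratio of 1.21 for WT and 1.27 for the libraries labelled Sema6D-/-. All 5 were called higher in each, where 10.7% of 10375 genes were called higher in WT and 14.0% of 10398 in the libraries labelled Sema6D-/-. With every library set to a common total FPKM their medians were 0.70 and 0.52, and 2 and 0 of 5 were called, against 6.77% and 7.09% of all genes. That rescaling shifted each LPS ratio by -0.53 for WT and by -0.76 for the libraries labelled Sema6D-/-. Shares and ratios of FPKM between members of 1 library, which no scaling moves, are therefore given for the catalytic pairs, for PA28 and for Psmd10 with Psmd5.

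**Figure D1:**
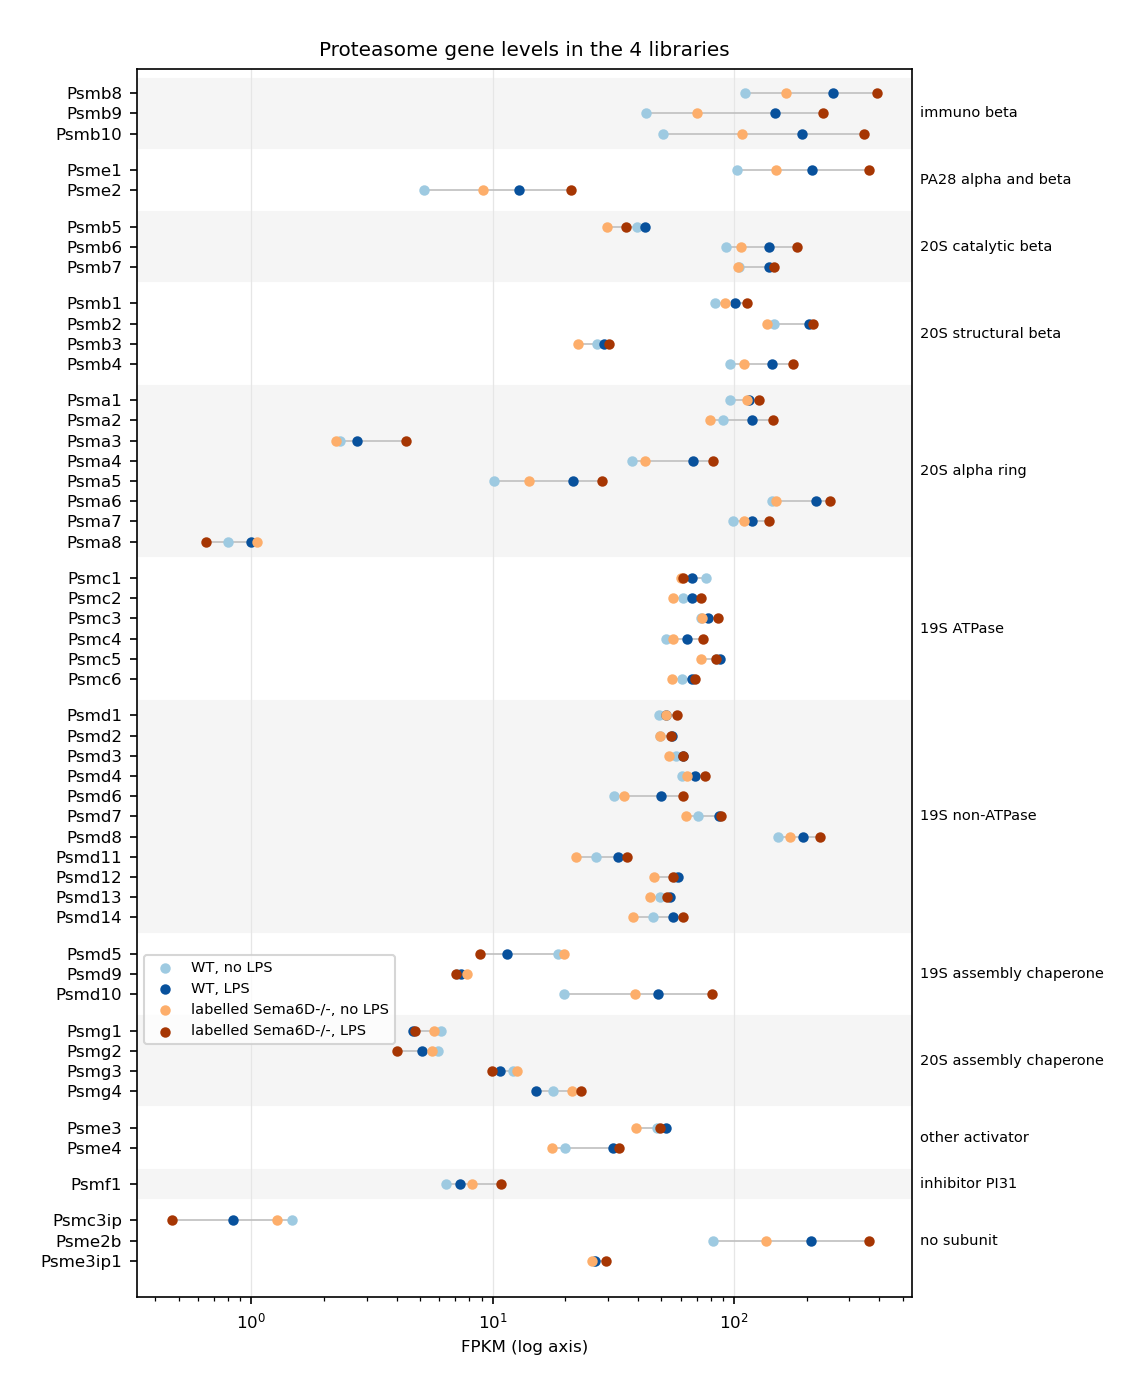
FPKM (log axis) of the 50 members above 0, grouped by role, with 1 point per library. The 3 immunosubunits, both PA28 genes and Psme2b spread over wider ranges than most subunits, with WT without LPS lowest and the library labelled Sema6D-/- with LPS highest.

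Psmb8, whose product takes the chymotrypsin-like site of Psmb5, measured 111, 257, 164 and 390.2 FPKM. Its log2 LPS ratios were 1.21 [1.16, 1.27] (WT) and 1.25 [1.20, 1.30] (labelled Sema6D-/-), and further pairs of ratios keep this order. Both libraries with LPS lay above both without. The Psmb8 exons overlap an antisense transcript (Gm20496) over 14.7% of their bases, and whether counting used strand is not given in the sources used here, so reads of overlapping partners cannot be told apart.

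Psmb9, which takes the place of Psmb6, measured 43.1, 148, 70.1 and 234 FPKM. The log2 LPS ratios were 1.78 [1.69, 1.87] and 1.74 [1.66, 1.82]. It was the lowest immunosubunit in each library, and again both values with LPS exceeded both without. Its exons overlap those of Tap1 on the other strand over 5.79% of their bases, and Tap1 itself measured 28.3, 225, 54.0 and 329 FPKM.

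Psmb10, which takes the trypsin-like site of Psmb7, measured 50.7, 191, 108 and 347 FPKM. In WT it had the highest LPS ratio of all 51 members, 1.92 [1.84, 2.0], and in the libraries labelled Sema6D-/- the ratio was 1.69 [1.63, 1.76]. No window of 50 bases of its transcript, or of those of Psmb8 and Psmb9, was shared with another gene.

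The constitutive catalytic partners stayed below the 2-fold mark. Psmb5 measured 39.7, 42.6, 29.8 and 35.8 FPKM, with log2 LPS ratios of 0.10 [-0.05, 0.26] and 0.26 [0.07, 0.46], and 57.1% of its 50-base windows also occur in other genes, so its level is uncertain. Psmb6 measured 92.3, 139, 107 and 183 FPKM (0.59 [0.49, 0.69] and 0.77 [0.67, 0.87]). Psmb7 measured 105, 139, 104 and 147 FPKM (0.41 [0.33, 0.48] and 0.49 [0.41, 0.58]), with exons that overlap Nek6 on the other strand over 11.8% of their bases. All 6 ratios turned below 0 at a common total FPKM except those of Psmb6, which were 0.06 (WT) and 0.01 (labelled Sema6D-/-).

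The immunosubunit share, the summed FPKM of Psmb8, Psmb9 and Psmb10 as a percentage of the 6 catalytic subunits, compares genes within a library. It was 46.3% [45.5, 47.2] in WT without LPS and 65.0% [64.3, 65.8] with LPS. For cells labelled Sema6D-/- it was 58.6% [57.7, 59.5] and 72.7% [72.0, 73.3]. In this sum constitutive transcripts were the larger portion only in unstimulated WT cells, which did not hold for each pair. The unstimulated library labelled Sema6D-/- lay between the WT values. The sum includes Psmb5, whose level is uncertain, and the intervals do not cover that.

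The 3 pairs differed in level. Psmb8 made up 73.6% of its pair with Psmb5 in unstimulated WT cells, then 85.8%, 84.6% and 91.6%, though the low value for Psmb5 carries the uncertainty named above. Psmb9 made up 31.8%, 51.6%, 39.5% and 56.1% of its pair with Psmb6. Psmb10 made up 32.5%, 57.9%, 50.7% and 70.3% of its pair with Psmb7. Every pair had its lowest share in WT without LPS and its highest in the library labelled Sema6D-/- with LPS. These are shares of transcripts, and assembled particles were not measured.

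**Figure D2:**
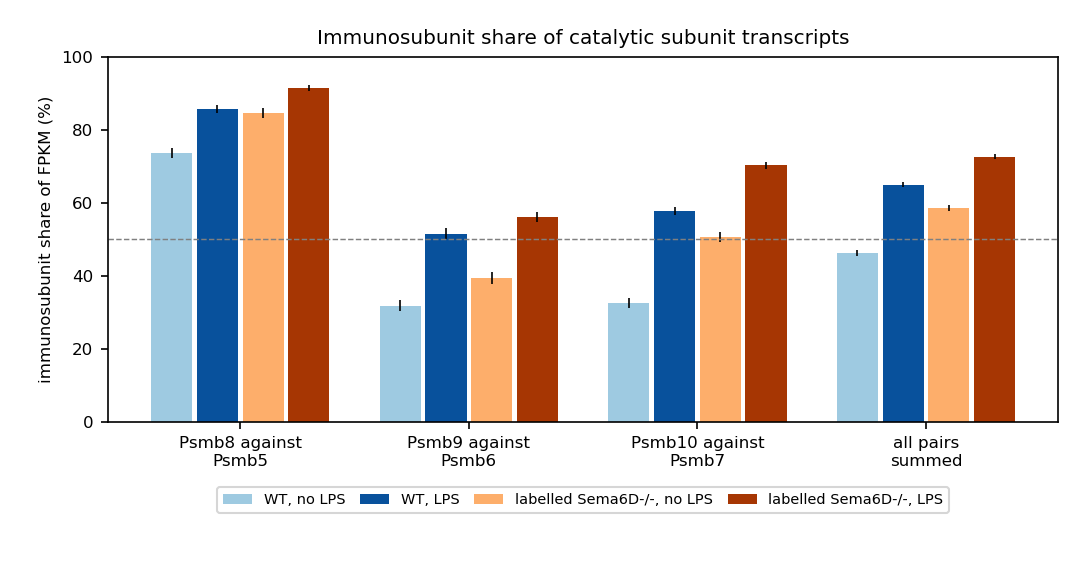
Immunosubunit share of FPKM (%, from 0 to 100) for each pair and for the pairs summed, 1 bar per library, with 95% counting intervals as error bars and a dashed line at 50%. The summed share runs from 46.3% in WT without LPS to 72.7% in the library labelled Sema6D-/- with LPS.

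PA28, the activator ring that opens the core, was higher with LPS in both of its genes. Psme1 measured 103, 211, 149.6 and 362 FPKM, with log2 LPS ratios of 1.03 [0.96, 1.10] and 1.27 [1.21, 1.34]. Relative to the median gene at 5 FPKM or more, which itself stood 0.11 (WT) and 0.15 (labelled Sema6D-/-) higher with LPS, the WT ratio of Psme1 was 0.91, below the 2-fold mark. Psme2 was listed at only 5.18, 12.8, 9.10 and 21.1 FPKM (1.31 [0.94, 1.70] and 1.21 [0.88, 1.55]).

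Psme2b, a near-identical copy of Psme2 on chromosome 11, was listed at 81.7, 208, 135 and 361 FPKM. The transcripts agreed at 711 of 716 aligned bases (99.3%), and 62.1% of the 50-base windows of Psme2 occur in other genes, so the split between the copies is uncertain. Summed, they measured 86.9, 221, 144 and 382 FPKM, of which Psme2b took 93.7% to 94.5%. The sum per Psme1 was 0.840, 1.05, 0.960 and 1.06. Whichever copy the reads came from, the summed value was near that of Psme1, its partner in the ring.

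The other activators were less far apart. Psme3, the nuclear PA28 gamma, measured 48.0, 52.3, 39.2 and 49.1 FPKM (0.12 [0.05, 0.19] and 0.32 [0.24, 0.41]). Psme4 (PA200), an activator known from histone degradation, was at 17.6 FPKM in the unstimulated library labelled Sema6D-/-, its lowest value, and at 31.6 and 33.3 FPKM in WT and labelled Sema6D-/- cells with LPS (0.66 [0.60, 0.73] and 0.92 [0.84, 0.99]), and at a common total the ratios of Psme4 stayed above 0 while those of Psme3 turned below 0. Psme1 stood 2.15, 4.04, 3.81 and 7.36 times above Psme3. Psmf1, which encodes the inhibitor PI31, measured 6.42, 7.29, 8.24 and 10.8 FPKM (0.18 [0.02, 0.35] and 0.40 [0.24, 0.55]).

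Constitutive members had a median log2 LPS ratio of 0.17 for WT and 0.33 for the libraries labelled Sema6D-/-, against 0.00 and 0.01 over all genes, and both medians turned below 0 at a common total FPKM (-0.29 and -0.41). Of 41 measured in WT, 2 were called higher (Psma5 and Psmd10) and 0 lower, where 10.7% of all genes were called higher and 4.85% lower. Of 42 measured in the libraries labelled Sema6D-/-, 1 was called higher (Psmd10) and 1 lower (Psmd5), where 14.0% of all genes were called higher and 8.81% lower. The inducible median exceeded the constitutive one by 1.04 for WT and 0.94 for the libraries labelled Sema6D-/-.

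Within the constitutive particle the 20S core had a higher median LPS ratio than the 19S cap, with ranges that overlap. The 14 obligate alpha and beta subunits had a median log2 LPS ratio of 0.40 for WT (from 0.09 to 1.03) and 0.65 for the libraries labelled Sema6D-/- (from 0.16 to 0.97). The 17 obligate ATPase and non-ATPase subunits of the cap had medians of 0.14 (from -0.18 to 0.63) and 0.26 (from 0.02 to 0.79). At a common total the medians were -0.12 and -0.10 for the core and -0.38 and -0.48 for the cap, so the signs turned while the median of the core stayed above that of the cap. This grouping was formed after the values were seen, and the distance is a description without a test.

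The alpha ring closes the core and gates entry to it, and Psma5 had the highest LPS ratio among its 8 genes. Psma5 measured 10.1, 21.6, 14.1 and 28.5 FPKM (1.10 [0.89, 1.31] and 1.01 [0.81, 1.22]), and 54.5% of its 50-base windows occur in other genes. Psma6, the most abundant, measured 144, 218, 149.8 and 249 FPKM (0.60 [0.54, 0.67] and 0.74 [0.66, 0.81]), with no shared window. Psma3 was listed at only 2.33, 2.75, 2.24 and 4.37 FPKM, with 78.5% of its windows shared, so its level is uncertain and its WT ratio of 0.24 [-0.43, 0.89] was not resolved at this depth, and its ratio of FPKM + 1 turned from 0.17 to -0.66 with the highest transcript alone. Psma8, the alpha subunit known from testis, measured 0.803, 0.996, 1.05 and 0.646 FPKM.

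The 4 structural beta subunits had median log2 LPS ratios of 0.37 (WT) and 0.53 (labelled Sema6D-/-), which turned below 0 at a common total. Psmb4 had the highest ratios (0.57 [0.50, 0.65] and 0.67 [0.60, 0.75]) at 96.6, 144, 110.1 and 176 FPKM. Psmb2, the most abundant, measured 147, 204, 137 and 212 FPKM. Psmb3, with 55.8% of windows shared, had the lowest ratio in WT (0.10 [-0.11, 0.30]) at 27.1, 29.0, 22.5 and 30.4 FPKM, and Psmb1 the lowest in the libraries labelled Sema6D-/- (0.31 [0.23, 0.38]).

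In the 19S cap, the 6 ATPases that unfold substrates had medians of 0.11 and 0.26. Psmc4 was highest (0.30 [0.20, 0.39] and 0.42 [0.32, 0.52]) at 52.1, 64.0, 55.7 and 74.4 FPKM. Psmc1 was lowest, at 76.3, 67.1, 60.5 and 61.2 FPKM (-0.18 [-0.27, -0.10] and 0.02 [-0.09, 0.12]). Psmc5 was the most abundant in WT, at 84.5 and 87.3 FPKM, while in the libraries labelled Sema6D-/- its 72.7 and 83.8 FPKM lay just below the 73.8 and 85.5 FPKM of Psmc3.

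The 11 non-ATPase subunits, which include receptors for ubiquitin and the deubiquitinase Psmd14, had medians of 0.18 and 0.26. Psmd6 was highest at 31.8, 49.9, 34.9 and 61.2 FPKM (0.65 [0.53, 0.77] and 0.81 [0.69, 0.94]), and its ratios alone among these 11 stayed above 0 at a common total in WT. Psmd8 was the most abundant (152, 193, 170.0 and 226 FPKM) and Psmd11 the least (26.9, 33.1, 22.1 and 36.1 FPKM). Psmd12 had the lowest WT ratio, 0.04 [-0.04, 0.12].

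The 3 assembly chaperones of the 19S base had LPS ratios in different directions. Psmd10 (gankyrin), a chaperone of the 19S base encoded on the X chromosome, measured 19.7, 48.2, 38.9 and 81.2 FPKM (1.29 [1.16, 1.43] and 1.06 [0.95, 1.17]). Psmd5, which serves the same base, measured 18.7, 11.5, 19.7 and 8.86 FPKM (-0.70 [-0.81, -0.59] and -1.15 [-1.29, -1.02]), so both of its values with LPS lay below both without. The ratio of Psmd10 to Psmd5 within a library was 1.05, 4.19, 1.98 and 9.16. Psmd9, the other chaperone of the base, measured 7.02 to 7.86 FPKM, with LPS intervals that include 0 (0.05 [-0.15, 0.25] and -0.16 [-0.39, 0.06]).

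Psmg1 to Psmg4 encode chaperones of the 20S rings and were low, at 4.01 to 23.2 FPKM. Their median log2 LPS ratios were -0.20 (WT) and -0.26 (labelled Sema6D-/-). Psmg1 measured 6.13, 4.68, 5.71 and 4.77 FPKM (-0.39 [-0.79, 0.02] in WT), Psmg2 5.94, 5.09, 5.58 and 4.01 FPKM, and Psmg3 12.1, 10.7, 12.6 and 9.94 FPKM. The WT intervals of all 4 include 0. Psmg4, at 17.7, 15.1, 21.4 and 23.2 FPKM, was the only one above 0 in the libraries labelled Sema6D-/- (0.12 [-0.24, 0.46]), and it too was below 0 at a common total. Its 2 transcripts went opposite ways in WT, from 6.10 to 9.31 FPKM and from 11.6 to 5.79 FPKM, so its WT ratio of FPKM + 1 turned from -0.21 to 0.54 with the highest transcript alone. Of the name-sharing genes, Psmc3ip, a factor of meiotic recombination, reached at most 1.47 FPKM, and Psme3ip1, a partner of PA28 gamma, measured 25.9 to 29.6 FPKM.

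**Figure D3:**
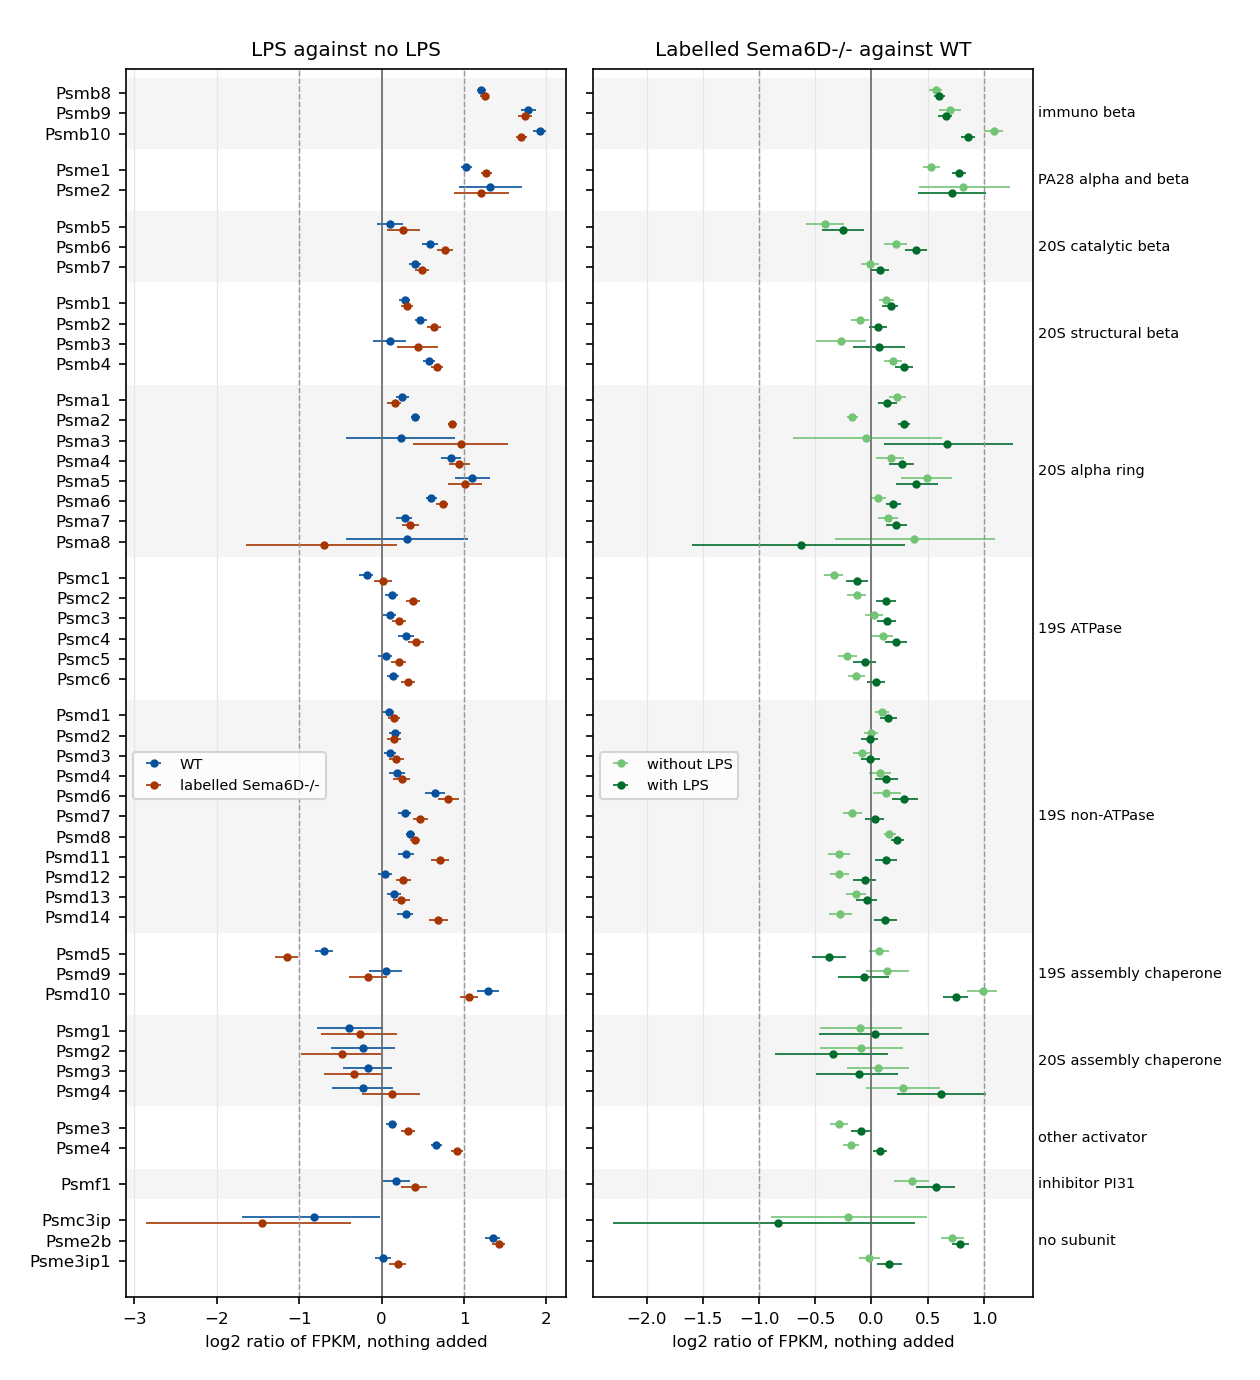
Log2 ratios of FPKM with nothing added and 95% counting intervals for the 50 members above 0, by role, for LPS (left) and genotype (right), with dashed lines at 2-fold. As deposited, the inducible members lie at or right of the 2-fold line with LPS and above 0 for genotype; at a common total FPKM the LPS points shift by -0.53 (WT) and -0.76 (labelled Sema6D-/-), and most constitutive points then fall below 0.

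Without LPS, all 5 inducible members were higher in the library labelled Sema6D-/- than in WT, by less than 2-fold except Psmb10. The log2 genotype ratios were 1.09 [1.00, 1.17] for Psmb10, 0.70 [0.60, 0.80] for Psmb9, 0.57 [0.51, 0.63] for Psmb8, 0.53 [0.46, 0.61] for Psme1 and 0.81 [0.42, 1.23] for Psme2. Their median was 0.69, beside 0.01 for the constitutive members and 0.04 over all genes. Psmb10 was called, so 1 of 5 members, where 2.51% of 10322 genes were called higher and 2.19% lower. Of the constitutive members 0 of 42 were called in either direction, with 21 above and 21 below 0.

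Among the constitutive members Psmd10 had the highest genotype ratio, at 38.9 against 19.7 FPKM without LPS (0.99 [0.85, 1.12]), just below the mark with 1 added (0.95). Psma5 followed (0.49 [0.26, 0.72]), and Psmb5 was lowest (-0.41 [-0.58, -0.24]). Psmd10 lies on the X chromosome, whose Xist RNA also separated the genotypes, and it was higher in the library with Xist at 0.0333 FPKM. Whether sex has a part in its ratio was not tested.

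With LPS the same 5 members were again higher in the library labelled Sema6D-/-. The ratios were 0.86 [0.80, 0.92] for Psmb10, 0.78 [0.72, 0.84] for Psme1, 0.72 [0.41, 1.02] for Psme2, 0.66 [0.59, 0.72] for Psmb9 and 0.60 [0.56, 0.65] for Psmb8. Their median was 0.67, and 0 of 5 were called, where 3.09% of 10078 genes were called higher and 3.18% lower. Constitutive members had a median of 0.12, which turned to -0.10 at a common total, where the inducible median was 0.45. Psmd10 measured 0.75 [0.64, 0.86], Psmf1 0.57 [0.40, 0.74] and Psmd5 -0.38 [-0.53, -0.23].

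These genotype ratios stand beside the difference in sex and macrophage markers that differed in both directions. They also stand beside the neutrophil marker sums, which were lower in both libraries labelled Sema6D-/- than in either WT library. The part of sex and of these markers in the ratios was not tested. Genotype, sex and library cannot be told apart with 1 library per group.

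The size of the LPS response was close between genotypes for most inducible members. As the response in the libraries labelled Sema6D-/- minus that in WT, on log2 FPKM with nothing added, Psmb8 differed by 0.03 [-0.04, 0.10], Psmb9 by -0.04 [-0.16, 0.08] and Psme2 by -0.10 [-0.59, 0.39]. Psmb10 differed by -0.22 [-0.33, -0.12] and Psme1 by 0.24 [0.15, 0.34], intervals that leave out 0 for counting error but hold no spread between cultures. The median of the 5 was -0.03 as deposited and -0.26 at a common total. No member was called, where 1.83% of 10680 genes had a 2-fold larger response and 1.25% a 2-fold smaller one.

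Most constitutive members had a slightly larger response in the libraries labelled Sema6D-/- as deposited, but not at a common total FPKM. Of the 31 obligate subunits of the 26S particle, 28 had a larger response in the libraries labelled Sema6D-/-, with a median difference of 0.13, but at a common total 24 of 31 had a smaller one (median -0.09). Psma2 (0.46 [0.38, 0.53]), Psmd11 (0.41 [0.27, 0.55]) and Psmd14 (0.40 [0.25, 0.55]) had large differences among well-measured subunits, and they were picked after their values were seen. Psmd5 had a more negative response by -0.45 [-0.62, -0.28]. The responses of the genotypes share no library.

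Genes around the proteasome were read from lists of related genes. Of 15 regulators on the interferon side, 9 were called higher with LPS in each genotype (medians 1.87 and 1.79), where 10.7% (WT) and 14.0% (labelled Sema6D-/-) of all genes were called higher. Irf1, a transcription factor of immunosubunit genes, measured 25.2, 334, 55.9 and 470.0 FPKM. Nlrc5, the transactivator of MHC class I genes, measured 5.52, 52.4, 9.63 and 80.7 FPKM, and Ifnb1, the gene of interferon beta, 0.229, 21.2, 0.394 and 37.3 FPKM. Without LPS 3 of the 14 measured were called higher in the library labelled Sema6D-/-, among them Irf1 (1.12), where 2.51% of all genes were, and with LPS 0 of 15 were, where 3.09% of all genes were.

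Among 10 peptide loading partners, which carry and fit the peptides that immunoproteasomes make, 4 were called higher with LPS for WT and 5 for the libraries labelled Sema6D-/-, against the same 10.7% and 14.0% of all genes. Tap1 had log2 ratios of 2.95 and 2.59, Tap2 1.99 and 1.91, and Tapbp (tapasin) 1.51 and 1.28. Tapbpl was the only one called for genotype without LPS (1.14, against 2.51% of all genes called higher), and 0 were called with LPS. Isg15, a ubiquitin-like modifier of interferon responses, measured 96.9, 1212, 204 and 1700.2 FPKM, and Uba7, its activating enzyme, 27.8, 90.6, 40.9 and 123 FPKM.

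Factors that bind or build the proteasome outside the naming rule were mostly well below 2-fold. Of 9 measured, 0 were called in any comparison, with LPS medians of 0.14 and 0.25. Of all genes, 10.7% (WT) and 14.0% (labelled Sema6D-/-) were called higher with LPS. For genotype, 2.51% without and 3.09% with LPS were called higher, so 0 of 9 does not set these factors apart. Pomp, the maturation factor of the core, measured 140.3, 191, 149.7 and 249 FPKM, and Sem1, a small cap subunit outside the naming rule, 275, 373, 270.3 and 404 FPKM. Of 7 regulators of constitutive subunit genes, 1 was called lower with LPS in each genotype, where 4.85% and 8.81% of all genes were called lower. It was Ddi2, the protease that activates Nfe2l1, at 38.0, 13.5, 39.8 and 11.1 FPKM (-1.43 and -1.76). Nfe2l1 itself measured 59.1, 62.1, 64.1 and 79.2 FPKM. Of 9 measured ubiquitin genes and shuttles 0 were called for WT and 1 for the libraries labelled Sema6D-/-, Uba1, the main activating enzyme of ubiquitin (1.06), where 10.7% and 14.0% of all genes were called higher.

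**Figure D4:**
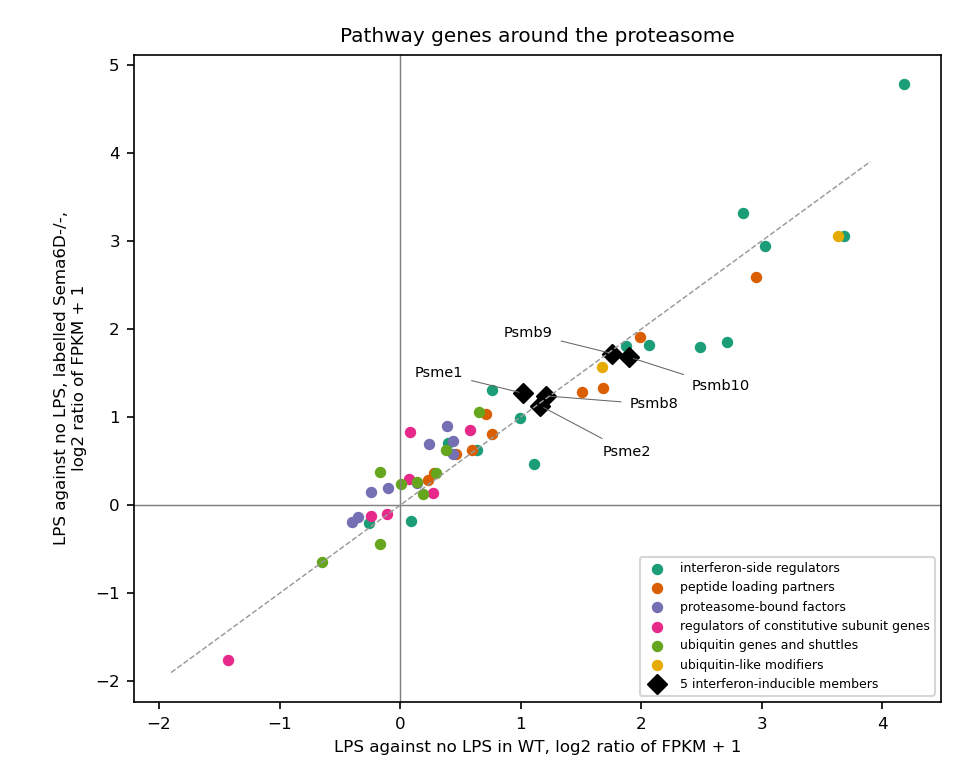
Log2 LPS ratios of FPKM + 1 for WT (x axis) and for the libraries labelled Sema6D-/- (y axis) for the listed genes around the proteasome (circles) and the 5 inducible members (diamonds), with a dashed line where both are equal. The inducible members lie between 1.02 and 1.90 on the x axis, below Irf1 and Tap1 and above the proteasome-bound factors as deposited; at a common total all points move by about -0.53 on the x axis and -0.76 on the y axis.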

How the data were processed

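Polyadenylated RNA of 4 cultures was sequenced from stranded libraries, per the labels' protocols. The authors deposited FPKM values, 1 per RefSeq transcript and library, with no counts. The submitters' processing notes name Cuffnorm 2.2.1, TopHat2 2.0.13, SAMtools 0.1.19, Bowtie2 2.2.3 and build mm9. Annotation, strand setting and the method of scaling between libraries are not given in the sources used here. By the estimates below, the values were not scaled to each library's own depth alone. In the order used above, 1 FPKM stood for 30.6, 20.0, 22.1 and 16.4 fragments per kb. The estimated depths were 23.5 M, 22.0 M, 17.2 M and 21.3 M fragments. Groups follow the titles, with "non" taken to mean no LPS, although LPS stands in the treatment field of all 4 samples.

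RefSeq identifiers were matched to symbols, leaving out 137 of 34487 transcripts without a match, and summed per gene. Ratios were log2 of FPKM + 1; genes under 1 FPKM in every library of a comparison were left out of it, and 2-fold was the size rule. Depth came from the steps between small FPKM values, with an assumed fragment mean of 200 bases. For each library the fragment unit was chosen to give the largest share of whole multiples. That share was 72.3% to 73.9% within a tolerance of 0.1. A unit fixed in advance would give 20% by chance, which is not the chance level of a chosen unit. Intervals for ratios are exact binomial ones, those of the summed share and of response differences are normal approximations on the log scale, and all cover counting error only. Only the ratios and the size rule were tested on simulated data, not the depth estimate, intervals, shares or sequence counts. Python 3.11.15, pandas 2.3.3, NumPy 2.4.6, SciPy 1.17.1, matplotlib 3.10.9 and Biopython 1.88 were used.

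Members, role groups and lists were chosen with earlier results of these data known. Named were the 5 inducible members and 3 partners, other members apart by 2-fold, members below 1 FPKM throughout, and in each role group the extremes of LPS ratio and level. The build of the reference (GRCm38) differs from that of the files. It served for names, overlaps and promoters. It also gave the transcript lengths behind the depth estimates, the fragment counts and all counting intervals. Alternatives changed the pseudocount, scaling, filter, transcript choice, size rule and share formula. The values of 1 listed gene are not reported here.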

Additional observations from a re-analysis of the deposited data

How the results depend on the processing

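No alternative turned the sign of a median of the interferon-inducible members in the LPS or genotype comparisons. At a common total FPKM the inducible medians were 0.70 (LPS in WT), 0.52 (LPS, labelled Sema6D-/-), 0.45 (genotype with LPS) and -0.26 (difference of responses), with 2 and 0 members called higher with LPS. The constitutive medians were -0.29, -0.41 and -0.10 (genotype with LPS), with 0 called higher in both LPS comparisons and 1 and 3 lower. Of all genes, 6.77% (WT) and 7.09% (labelled Sema6D-/-) were then called higher with LPS, and 14.3% and 28.6% lower. Centred on the median gene, the inducible medians were 1.09, 1.12 and 0.61 (genotype with LPS) and the constitutive ones 0.06 and 0.18. In each LPS comparison 4 of 5 inducible members were called higher (Psme1 fell to 0.91 in WT, Psme2 to 0.98 in the libraries labelled Sema6D-/-). Of the constitutive members 1 and 0 were called higher, where 9.57% (WT) and 12.0% (labelled Sema6D-/-) of all genes were. With no pseudocount the inducible LPS median in WT was 1.31, and 2 constitutive members were called higher in the libraries labelled Sema6D-/-, as also with 0.1 FPKM (2). Taking the highest transcript per gene gave an inducible median of 0.77 for genotype with LPS, 0.65 above the constitutive one, left 4 of 5 inducible members called with LPS in WT, and turned the WT ratios of Psmg4 (0.54) and Psma3 (-0.66). At a 1.5-fold rule, 6 constitutive members were higher and 1 lower with LPS in WT, 13 higher in the libraries labelled Sema6D-/-, and 1 and 2 higher for genotype without and with LPS; of the inducible members 3 and 5 were.

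Chosen after seeing the data were 3 alternatives. Summing Psme2 with Psme2b gave inducible medians of 1.34, 1.40 and 0.77 (genotype with LPS), which lay 1.16, 1.07 and 0.65 above the constitutive ones. Without Psme2 they were 1.48 and 1.48, by 1.31 and 1.14 above. With obligate 26S subunits only, the constitutive median for LPS in WT was 0.27, with 1 called higher in WT and 0 higher and 0 lower in the libraries labelled Sema6D-/-, and the inducible medians lay 0.93 and 0.86 above. Scaling, filter and transcript choice could not move the immunosubunit share, a ratio within a library of well-expressed genes with a single transcript each. With another formula, the mean of the percentages of the pairs, it was 46.0%, 65.1%, 58.3% and 72.7%, within its intervals. Of the group values, 209 moved by less than the interval or by less than 1.5 times in a count, and 48 by more; for single genes these were 1156 and 213. The cause of these shifts was not tested. No paired analysis was run: libraries with and without LPS could be paired only by genotype, which leaves 1 residual degree of freedom and no replicates. Depth limits Psma3, Psma8, Psmc3ip and Psmg1 to Psmg4. It also limits the inducible member Psme2, at an estimated 94, 158, 120 and 206 fragments.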

Other observations

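The promoter windows of 7 members overlapped that of a gene on the other strand, and the levels of such neighbours differed in their relation to the member. Values stand in the order WT without LPS, WT with LPS, labelled Sema6D-/- without LPS and with LPS. Tap1, beside Psmb9 with 275 shared bases, had log2 LPS ratios of FPKM + 1 of 2.95 and 2.59. Atg4a, an autophagy protease gene beside Psmd10 with 295 shared bases, measured 3.01, 3.03, 3.99 and 4.50 FPKM, with LPS ratios of 0.01 and 0.14, while those of Psmd10 were 1.25 and 1.04. Sirt3, the gene of a mitochondrial deacetylase that shares 184 bases with Psmd13, measured 3.77, 1.60, 4.65 and 1.33 FPKM, with LPS ratios of -0.88 and -1.28, while Psmd13 measured 49.3, 54.5, 44.7 and 52.9 FPKM. Mrpl32, a mitochondrial ribosomal gene beside Psma2 with 296 shared bases, had ratios of 0.12 and 0.59, and Psma2 measured 89.8, 119, 79.8 and 145 FPKM. Ftsj3 beside Psmc5 had ratios of -0.38 and -0.39, Ss18l1 beside Psma7 0.41 and 0.24, and Rspry1 beside Psme3ip1 0.00 and -0.05. The annotated exons of Psmb9, Psmd13 and Psme3ip1 also overlap those of their neighbours, over 5.79%, 10.1% and 1.62% of their bases, so reads there cannot be told apart. These pairs were picked by position, and no test was run on them.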
